A study of Mus musculus with 6 samples.

Results

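Chemokines are small secreted proteins that direct the movement of leukocytes, and chemokine receptors are the G protein-coupled receptors through which they act. The genes were chosen by symbol: every gene of the CC and CXC ligand and receptor families, together with Cx3cl1, Cx3cr1, Xcl1 and Xcr1, that had a transcript cluster of its own on the array. This gave 52 genes, 34 ligands and 18 receptors, of 19938 genes measured. Of these, 4 ligands (Cxcl9, Cxcl10, Ccl9 and Ccl7) were called higher in HBC than in LBC. No ligand was called lower, and no receptor was called in either direction. A call needed both an adjusted p and a fold past the thresholds given below. By adjusted p alone, Ccl2 was also higher in HBC, and the ligands Ccl25, Ccl17 and Cx3cl1 and the receptor Cxcr6 were lower. Cxcr6 lay at the edge of the threshold and did not pass it under most alternatives.

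HBC (high binding cells) and LBC (low binding cells) are immortalized stromal vascular preadipocytes that were taken from male 129SVE mice (inguinal white adipose tissue) and sorted by flow cytometry for how much FcsFNDC4 they bound. FcsFNDC4 is the soluble part of FNDC4 fused to an Fc tag, and the populations were compared to find candidate receptors for it. Both groups met FcsFNDC4 at every sort and were expanded in the same medium, and each group is 1 population that had been sorted 20 times, without an unsorted or Fc-only population on the arrays. Total RNA from 3 technical replicates per group was hybridised to 1 array each, so p-values measure the spread between arrays and not that between independent sorts. In bulk RNA such as this, fewer expressing cells and less RNA per expressing cell cannot be told apart.

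Preadipocytes and other fibroblast-like cells of fat are a known source of chemokines, which recruit monocytes, T cells and neutrophils into the tissue. Ligands of the receptor CXCR3 are classical targets of interferons, whereas the monocyte attractants that act on CCR2 are mostly known as targets of NF-kB. Most chemokine receptors are carried by leukocytes, and the chemokine genes lie in a few gene clusters that arose by duplication.

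The arrays were grouped by title, description and cell phenotype; for LBC replicates 2 and 3 a further label, the source name, reads HBC instead. These 2 arrays correlated with LBC replicate 1 at r = 0.9986 and 0.9961 over log2 values of all genes (a description across genes), against 0.9801 to 0.9857 with the HBC arrays. Without both of them, which leaves 1 LBC array that is assumed to vary like the HBC arrays, the same 4 ligands were called higher. The median intensity of an array ran from 122 to 132 in HBC and from 131 to 134.6 in LBC. Signal was called dim where a group mean did not exceed the 90th percentile of 1027 olfactory receptor genes, taken as a reference for genes with little or no transcript. From their 10th to their 90th percentile these genes spanned 13.7 to 83.9 in HBC and 13.9 to 86.1 in LBC. Of 9 preadipocyte markers measured, 8 lay above the dim range in both groups, among them Pdgfra, a receptor tyrosine kinase of these cells (4096 in HBC and 3166 in LBC), and Lum was dim. Of these markers 1 was called higher (the collagen gene Col3a1, log2 fold change 0.80) and 1 lower (Dcn, which encodes the proteoglycan decorin, -0.78). By adjusted p alone 4 were higher and 2 lower, Cd34 (-0.45) being the other lower one. Over all genes 2.54% were called higher and 1.13% lower, and by adjusted p alone 6.93% were higher and 11.4% lower.

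Calls rest on limma with Benjamini-Hochberg adjustment over all 19938 genes, on log2(intensity + 16), and a gene was called where the adjusted p was under 0.05 and the fold exceeded 1.5. By this rule 4 of the 52 genes (7.69%) were higher in HBC, against 2.54% of all genes. None was lower, against 1.13% of all genes; at an unadjusted p under 0.05 by limma 5 of the 52 (9.62%) were lower, against 20.4% of all genes, and the methods' test also called none. By adjusted p alone 5 of the 52 (9.62%) were higher, against 6.93% of all genes, and 4 (7.69%) were lower, against 11.4%. The 3 HBC arrays all lay above the 3 LBC arrays for 7 of the 52 (13.5%; 10.1% of all genes) and all below them for 9 (17.3%; 25.1% of all genes). The median log2 fold change of the 52 genes was -0.05 and that of all genes -0.07, so the middle of the family lay close to that of all genes. Members outside the 4 calls ran from -0.48 (Ccl25) to 0.44 (Ccl2).

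**Figure D1:**
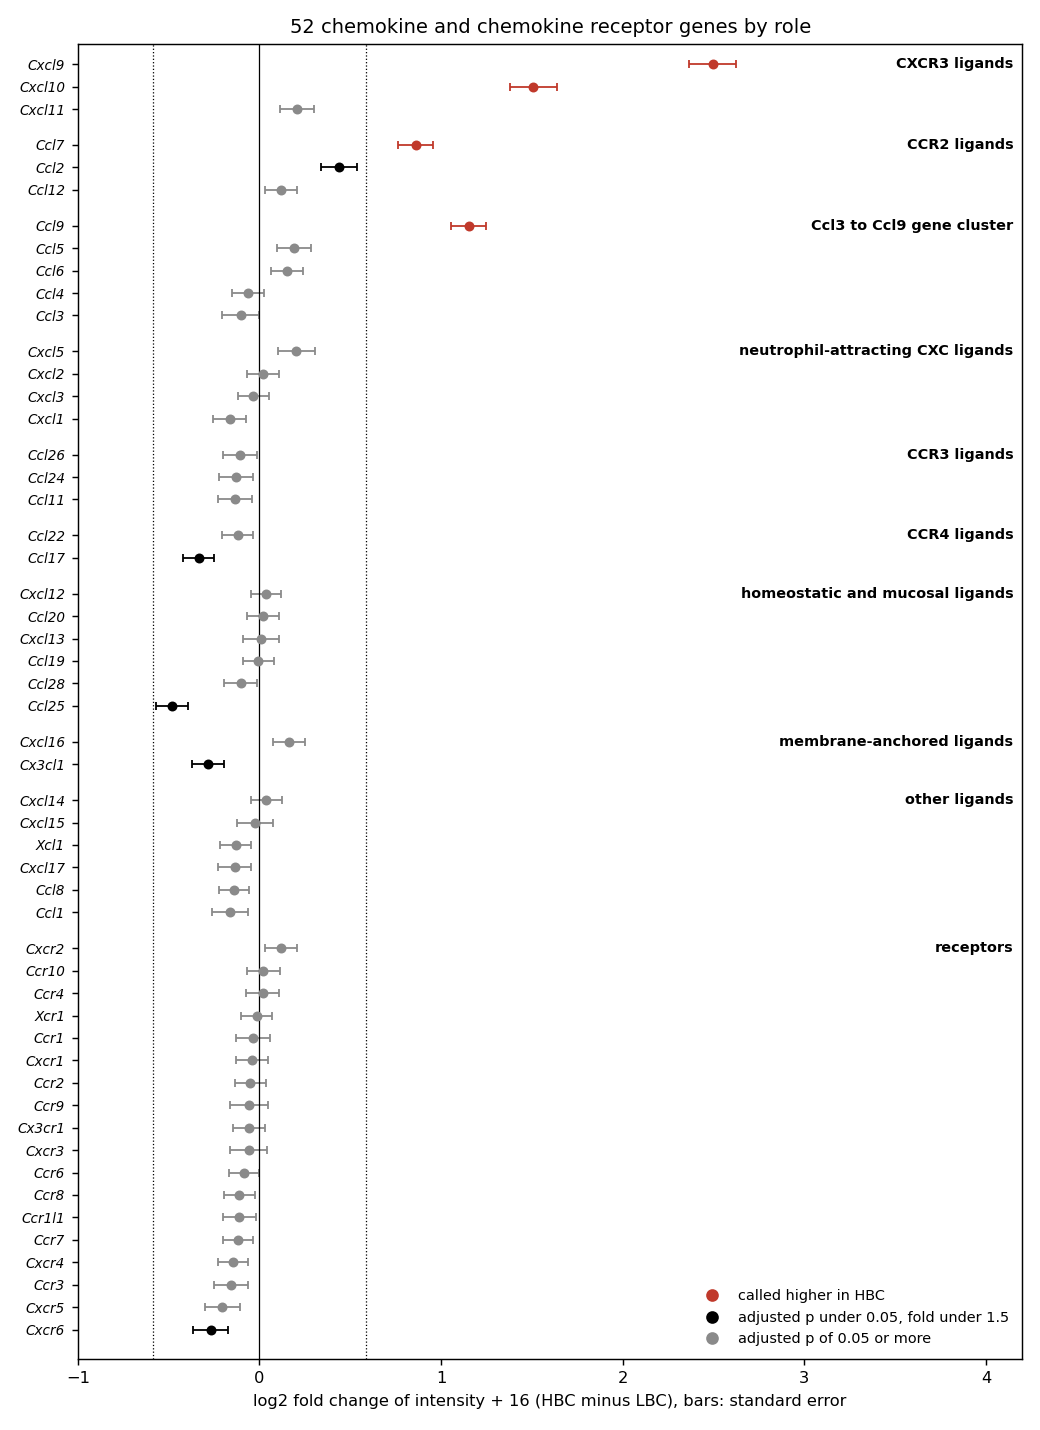
Log2 fold change of intensity + 16 (HBC minus LBC) of each of the 52 genes by role (bars: standard error of the limma fit, 3 arrays in each group), with dotted lines at a fold of 1.5. Cxcl9, Cxcl10, Ccl9 and Ccl7 lie right of the dotted line, and no gene lies left of the other.

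Of the 3 ligands of CXCR3, the receptor of activated T and NK cells, Cxcl9 and Cxcl10 had the largest rises of the family and Cxcl11 was not called. Cxcl9 and Cxcl10 lie close together on chromosome 5. RefSeq annotates Cxcl11 as a transcribed pseudogene in the C57BL/6J reference, whereas the cells here come from 129SVE mice. The 250 bases before the start of Cxcl10 and Cxcl9 are shown because these genes had the largest log2 fold changes of the 52 and, as duplicated genes, can be compared by the letters of their promoters. They are RefSeq sequence of GRCm38.p6, both on the minus strand, at chr5:92348890-92349139 for Cxcl10 and chr5:92328080-92328329 for Cxcl9. Capitals mark matches, on either strand, to GAAANNGAAA (the core of the interferon-stimulated response element), TTCNNNGAA (the gamma-activated site), TGANTCA (the AP-1 site) and the NF-kB consensus. The last was searched as GGG[AG]NN[CT][CT]CC, where brackets hold the bases allowed.
Cxcl10: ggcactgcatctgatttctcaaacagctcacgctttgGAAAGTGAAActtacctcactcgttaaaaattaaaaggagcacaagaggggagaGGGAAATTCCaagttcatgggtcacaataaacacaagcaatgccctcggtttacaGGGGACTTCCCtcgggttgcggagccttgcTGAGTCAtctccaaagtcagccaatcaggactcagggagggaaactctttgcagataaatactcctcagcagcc
Cxcl9: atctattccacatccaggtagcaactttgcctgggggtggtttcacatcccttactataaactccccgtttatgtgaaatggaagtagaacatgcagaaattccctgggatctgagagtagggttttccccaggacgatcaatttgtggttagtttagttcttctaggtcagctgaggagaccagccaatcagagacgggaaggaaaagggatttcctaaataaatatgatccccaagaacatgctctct
In Cxcl10, the first capitals (213 to 204 bases before the start) match GAAANNGAAA. The next (159 to 150) and the third, an overlapping pair (104 to 94), match the NF-kB consensus, and the last (74 to 68) match TGANTCA. In Cxcl9 none of the 4 patterns is found in this window. Only exact matches were searched, so sites that differ from a pattern by a base are not marked. Over 32851 RefSeq windows of the same length, GAAANNGAAA was found in 2.98%, TTCNNNGAA in 7.02%, TGANTCA in 6.75% and the NF-kB consensus in 7.25%. The windows of the 38 genes of the family with an entry numbered 40, and 3, 4, 4 and 10 of them held these patterns in the same order. The 10 with an NF-kB match are those of Ccl1, Ccl9, Ccl20, Ccr1, Ccr3, Ccr6, Cxcl1, Cxcl2, Cxcl3 and Cxcl10. Of these 10 genes, 2 rose (Cxcl10 and Ccl9) and 8 were not called, and the 2 other genes with GAAANNGAAA, Ccl19 and Cxcl14, were not called either.

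Cxcl9, which encodes the monokine induced by interferon gamma, had an intensity of 472, 646 and 345 on the HBC arrays, against 84.7, 65.6 and 63.5 on the LBC arrays. The groups did not overlap, and all 3 LBC values lay within the range of dim signal. The mean was 488 ± 151 in HBC and 71.3 ± 11.7 in LBC (SD, n = 3 arrays each), which is 6.85 times as high, with a log2 fold change of 2.49 (SE 0.13, adjusted p = 1.36e-15, limma). Since the LBC level was dim, its size is uncertain, and against the upper end of the dim range the ratio was 5.67. The methods' threshold of a mean intensity above 100 in both groups would leave Cxcl9 out.

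Cxcl10, which encodes the interferon-induced protein IP-10, read 2105, 2410.1 and 1372 in HBC, against 715, 715 and 565 in LBC. Every HBC array lay above every LBC array, and replicate 3 was the lowest array of each group. The mean was 1962 ± 534 in HBC and 665 ± 86.4 in LBC (SD, n = 3 each), a ratio of 2.95, with a log2 fold change of 1.51 (SE 0.13, adjusted p = 1.41e-10, limma). Its rise kept its size but missed the threshold in the methods' test of each gene by itself (adjusted p = 0.058). Cxcl9 and Cxcl10 had the widest spread of the called ligands among HBC arrays, with coefficients of variation of 31.0% and 27.2%.

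Cxcl11, the remaining CXCR3 ligand, did not follow them. It had 115, 136 and 107 in HBC and 112, 98.9 and 92.5 in LBC, with overlapping arrays. Its log2 fold change was 0.21 (SE 0.09, adjusted p = 0.126, limma), with a 95% interval of 0.02 to 0.40. The transcript of Cxcr3 itself was dim everywhere, with means of 67.2 in HBC and 70.5 in LBC.

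**Figure D2:**
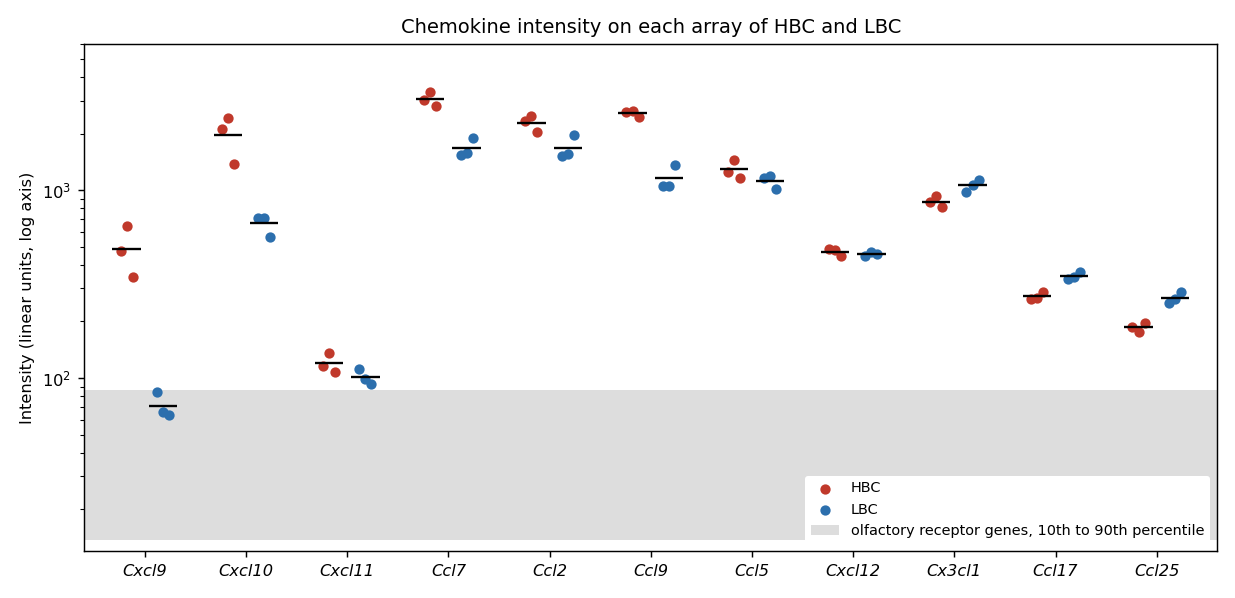
Intensity (linear units, log axis) of 11 chemokine genes on each array, HBC in red and LBC in blue, with black lines for the mean of 3 arrays and the grey band for the range of dim signal. Heights of different genes are not comparable; for Cxcl9 the 3 LBC points lie inside the band, and for Cxcl10, Ccl7, Ccl2 and Ccl9 the red points all lie above the blue ones.

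Among the ligands of CCR2, the receptor that brings monocytes into tissue, Ccl7 was called and Ccl2 was not. Ccl7, which encodes the monocyte chemoattractant MCP-3, had 3004, 3316 and 2800.0 in HBC and 1534, 1582 and 1901 in LBC. The groups did not overlap, with means of 3040.1 ± 260.0 in HBC and 1673 ± 199.8 in LBC (SD, n = 3 each), a ratio of 1.82. Its log2 fold change was 0.86 (SE 0.09, adjusted p = 2.26e-08, limma).

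Ccl2, the adjacent gene, encodes MCP-1, the best known monocyte attractant of fat. It read 2333, 2476 and 2034 in HBC, against 1520.1, 1560.1 and 1971 in LBC. The HBC arrays all lay above the LBC arrays, but HBC replicate 3 and LBC replicate 3 were close to each other. The mean was 2281 ± 226 in HBC and 1684 ± 249.6 in LBC (SD, n = 3 each), a ratio of 1.35, and the log2 fold change was 0.44 (SE 0.10, adjusted p = 0.00146, limma). This is under the fold needed for a call. The adjusted p was 0.055 when every transcript cluster was tested and 0.18 in the methods' test. Ccl12, which encodes MCP-5 in the mouse, was dim everywhere, with means of 52.2 in HBC and 46.9 in LBC.

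Ccl2, Ccl7, Ccl11, Ccl12, Ccl8 and Ccl1 are consecutive protein-coding genes on chromosome 11 in RefSeq. Only the first 2 of these 6 lay above the range of dim signal, in both groups, and the other 4 had log2 fold changes from -0.16 (Ccl1) to 0.12 (Ccl12), none of them past the test. Ccl11, which encodes the eosinophil attractant eotaxin, had 63.5, 61.1 and 74.2 in HBC and 84.4, 75.4 and 63.6 in LBC. These values overlapped and lay within the dim range, with a log2 fold change of -0.13 (SE 0.09, adjusted p = 0.352, limma). The RefSeq table of promoters had no entry for Ccl2 or Ccl7.

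The ligands of the Ccl3 to Ccl9 gene cluster attract monocytes and T cells, and of the 5 measured only Ccl9 was called. Ccl9 encodes MIP-1 gamma, a chemokine of rodents that acts through CCR1. It had 2615, 2648 and 2442 in HBC and 1051, 1049 and 1366 in LBC. The groups were far apart, and the spread was narrower in HBC, with means of 2568 ± 111 in HBC and 1155 ± 182 in LBC (SD, n = 3 each) and a ratio of 2.22. The log2 fold change was 1.15 (SE 0.10, adjusted p = 7.3e-11, limma). Its 250 bases before the start, at chr11:83578637-83578886 on the minus strand (RefSeq, GRCm38.p6), are shown with the same patterns in capitals, since Ccl9 was called while its neighbours were not.
Ccl9: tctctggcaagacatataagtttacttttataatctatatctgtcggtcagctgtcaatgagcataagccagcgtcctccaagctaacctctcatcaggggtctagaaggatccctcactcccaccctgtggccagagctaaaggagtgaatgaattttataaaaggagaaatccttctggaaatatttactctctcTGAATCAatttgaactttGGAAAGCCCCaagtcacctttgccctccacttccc
The first capitals (53 to 47 bases before the start) match TGANTCA, and the second (35 to 26) match the NF-kB consensus on the opposite strand.

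Ccl9 stands in a run of 5 consecutive protein-coding genes on chromosome 11, in the order Ccl5, Ccl9, Ccl6, Ccl3 and Ccl4, and none of its 4 neighbours was called. Ccl5, which encodes the T cell attractant RANTES, had 1254, 1452 and 1158 in HBC and 1164, 1192 and 1015 in LBC. These arrays overlapped, with a log2 fold change of 0.19 (SE 0.09, adjusted p = 0.167, limma). Ccl6, another CCR1 ligand of rodents, averaged 113 ± 3.91 in HBC and 101 ± 11.9 in LBC (SD, n = 3 each), just above the dim range, with a log2 fold change of 0.15 (adjusted p = 0.262, limma). The HBC arrays of Ccl6 all lay above those of LBC, with the closest pair nearly equal. Ccl4 (MIP-1 beta) averaged 134 in HBC and 141 in LBC, with a log2 fold change of -0.06, and Ccl3 (MIP-1 alpha) was dim in both groups.

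The CXC ligands that attract neutrophils through CXCR2 were not called. Cxcl1, the best known of them in fibroblasts, had 313, 301 and 295 in HBC and 332, 306 and 391 in LBC, and the groups overlapped (log2 fold change -0.16, SE 0.09, adjusted p = 0.228, limma). Cxcl3 averaged 219.5 ± 10.4 in HBC and 225 ± 13.4 in LBC (SD, n = 3 each), with a log2 fold change of -0.03 that turned positive under other scalings. Cxcl2 and Cxcl5 were dim in both groups. Cxcl5 had a log2 fold change of 0.20 (adjusted p = 0.18, limma).

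Members with an adjusted p under 0.05 and a lower level in HBC were Ccl25, Ccl17, Cx3cl1 and Cxcr6, none of them past a fold of 1.5. Ccl25, the ligand of CCR9 in gut and thymus, had 188, 176 and 197 in HBC and 251, 263 and 288 in LBC. The groups did not overlap, and the log2 fold change was -0.48 (SE 0.09, adjusted p = 0.000108, limma). Of the lower genes, Ccl25 had an adjusted p under 0.05 under every alternative tried. Its second transcript cluster was also lower on each HBC array (161, 164 and 190.0) than on each LBC array (211, 210.4 and 246).

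Ccl17, a ligand of CCR4 that attracts type 2 helper T cells, had 265, 267 and 288 in HBC and 336, 347 and 365 in LBC. The groups did not overlap, and the log2 fold change was -0.34 (SE 0.08, adjusted p = 0.00453, limma). Without LBC replicates 2 and 3 the adjusted p was 0.079. Cx3cl1 (fractalkine, a chemokine held on the cell membrane) had 861, 931 and 815 in HBC and 981, 1062 and 1139 in LBC. Its HBC arrays all lay below its LBC arrays, with a log2 fold change of -0.28 (SE 0.09, adjusted p = 0.0225, limma). The adjusted p by limma exceeded 0.05 without HBC replicate 1 (0.093), without HBC replicate 3 (0.1) and without LBC replicate 2 (0.079). It also did so under median centring, an offset of 1, a replicate block and a floor under dim signal. The same held when every transcript cluster was tested and in the methods' test. Ccl22, Cx3cl1 and Ccl17 are consecutive protein-coding genes on chromosome 8, and Ccl22, the other CCR4 ligand, was dim, at 57.3 in HBC and 63.8 in LBC. Cxcl16, the other chemokine held on the membrane, had a log2 fold change of 0.16 (SE 0.09, adjusted p = 0.206, limma), with means of 106 in HBC and 92.7 in LBC.

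Ligands of resting tissue and mucosa stayed near 0 apart from Ccl25. Cxcl12, the ligand of CXCR4 that stromal cells make without stimulation, had 486, 479 and 448 in HBC and 444, 471 and 459.9 in LBC. The arrays overlapped, and the log2 fold change of 0.04 (SE 0.08, adjusted p = 0.804, limma) had a 95% interval of -0.14 to 0.21. Ccl19, a ligand of CCR7, averaged 104 in HBC and 105 in LBC, with a log2 fold change of -0.01, and its 5 transcript clusters carried similar values. Ccl28, a ligand of CCR10, averaged 90.1 in HBC and 98.0 in LBC, and Ccl20 and Cxcl13 were dim.

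The remaining ligands had log2 fold changes between -0.14 and 0.04, and none passed the test. Xcl1, which acts on XCR1 of dendritic cells, averaged 106 in HBC and 118 in LBC, with the HBC arrays all below the LBC arrays (adjusted p = 0.314, limma). Cxcl17, known from mucosal surfaces, averaged 98.4 in HBC and 109.9 in LBC. Ccl8, Cxcl14, Cxcl15, Ccl24 and Ccl26 were dim in both groups. Ccl21a to Ccl21d and Ccl27a and Ccl27b share their transcript clusters with each other and with further genes, so they were not among the 52. The 4 clusters of the Ccl21 genes held the same values, 79.1, 72.9 and 83.5 in HBC and 91.9, 85.9 and 85.9 in LBC. Of the 3 Ccl27 clusters, the brightest read 244.4, 244.9 and 246.0 in HBC and 286.4, 292.4 and 322.7 in LBC. The others, identical to each other, read 200.5, 201.3 and 201.6 in HBC and 240.6, 233.8 and 260.5 in LBC.

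**Figure D3:**
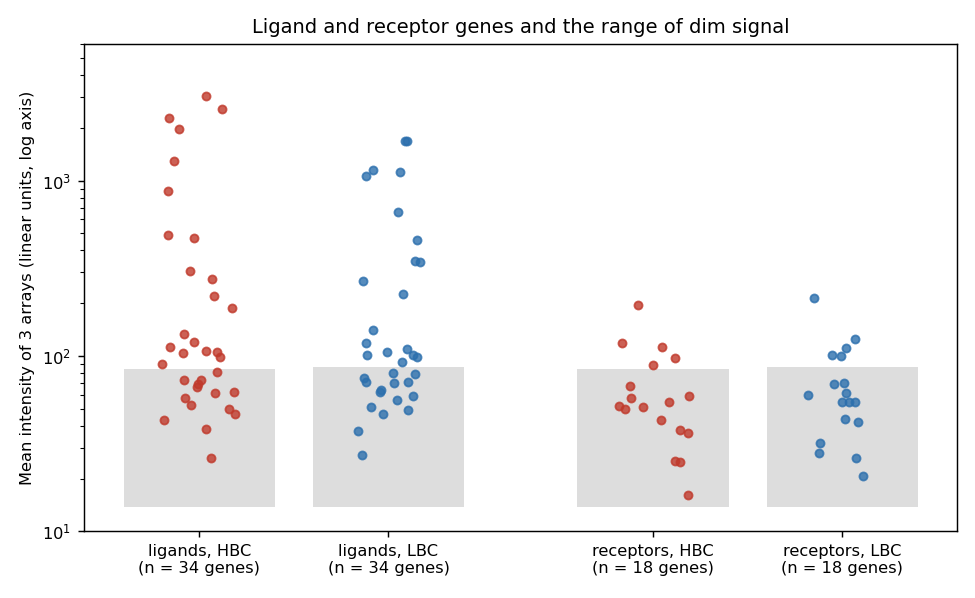
Mean intensity of 3 arrays (linear units, log axis) of each of the 34 ligand and 18 receptor genes, HBC in red and LBC in blue, with grey boxes for the range of dim signal (1027 olfactory receptor genes) in the same group. Above the box in at least 1 group lie 20 ligands and 5 receptors.

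Receptors were mostly dim. Only 5 of 18 had a mean above the dim range in either group (27.8%), against 20 of 34 ligands (58.8%) and 69.9% of all genes. The 5 were Ccr7, Ccr10, Cx3cr1, Cxcr1 and Cxcr4. The other 13 were dim in both groups: Ccr1, Ccr1l1, Ccr2, Ccr3, Ccr4, Ccr6, Ccr8, Ccr9, Cxcr2, Cxcr3, Cxcr5, Cxcr6 and Xcr1. Among these, Cxcr5 had a log2 fold change of -0.20 (adjusted p = 0.145, limma) and Ccr3 one of -0.16 (adjusted p = 0.28, limma). Cxcr3, Ccr1 and Ccr2, through which the 4 ligands that rose act, were dim in both groups. Ccr1 had a log2 fold change of -0.03 and Ccr2 one of -0.05, with means of 52.1 in HBC and 54.6 in LBC for Ccr2.

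Cxcr4, the receptor of CXCL12, had 90.1, 89.4 and 88.4 in HBC and 100.2, 100.6 and 100.2 in LBC. These were the tightest values of the family, all lower in HBC and all close to the dim range, with a log2 fold change of -0.14 (SE 0.08, adjusted p = 0.247, limma). Ccr7, a receptor of lymphoid homing, averaged 196 ± 6.84 in HBC and 214 ± 9.41 in LBC (SD, n = 3 each), with a log2 fold change of -0.12 (adjusted p = 0.357, limma). Ccr10 (0.02), Cx3cr1 (-0.06) and Cxcr1 (-0.04) had log2 fold changes near 0 whose signs turned under other scalings or with arrays left out. Cxcr6, the receptor of CXCL16, was the receptor with the lowest log2 fold change, -0.27 (SE 0.10, adjusted p = 0.04998, limma), with 62.8, 43.9 and 57.9 in HBC and 63.0, 69.9 and 73.7 in LBC. All its values lay within the dim range, and without HBC replicate 2 the adjusted p was 0.42 by limma. It was also 0.05 or more under quantile, cyclic loess and median scaling, offsets of 1 and 50 and a replicate block. The same held with a floor under dim signal, when every transcript cluster was tested and in the methods' test.

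Of the 5 atypical and decoy receptors, which bind chemokines without G protein signalling, 1 was called higher, Ackr3, against 2.54% of all genes. None of them was called lower, against 1.13% of all genes. Ackr3 takes up CXCL12 and CXCL11, and it had 144, 138 and 127 in HBC, against 76.9, 71.0 and 74.1 in LBC, where it was dim. The groups did not overlap, and the log2 fold change was 0.76 (SE 0.09, adjusted p = 3.97e-08, limma), larger than for any of the 18 receptors of the family. Ccrl2, which presents the attractant chemerin, averaged 86.6 in HBC and 65.4 in LBC, with a log2 fold change of 0.34 (adjusted p = 0.00816, limma) that was under the fold for a call. Ackr1, Ackr2 and Ackr4 had log2 fold changes from -0.21 to -0.15 and did not pass the test.

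Genes that act before the chemokines were taken as lists, to be read against 2.54% of all genes called higher and 1.13% called lower. Of 4 interferon transcription factors measured, 3 rose: Irf7 by 3.36, Stat2 by 2.35 and Irf9 by 1.71 on the log2 scale. Irf7, the amplifier of the type I response, had 1124, 1336 and 999 in HBC and 133, 115 and 57.3 in LBC. Irf1, the factor most often tied to Cxcl9 and Cxcl10 under interferon gamma, averaged 861 in HBC and 653 in LBC, with a log2 fold change of 0.39 that was under the fold for a call (adjusted p = 0.0019, limma). As in Cxcl10, replicate 3 was the lowest array of each group for Irf7, Stat2 and Irf9. The rises in this list and those of Cxcl9 and Cxcl10 come from the same arrays, and their relation was not tested.

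In the NF-kB pathway, 0 of 11 genes were called, and by limma 5 were lower and 0 higher at an unadjusted p under 0.05, against 20.4% and 9.51% of all genes. Adjusted p was under 0.05 for Nfkbie (log2 fold change -0.55), Nfkbia (-0.41), Nfkb2 (-0.39) and Relb (-0.34). All of them were lower in HBC by less than a fold of 1.5 on the log2(intensity + 16) scale. Nfkbie averaged 114 in HBC and 174 in LBC, a ratio of means of 0.656 without the offset, which is past that fold. Nfkbia and Nfkbie encode inhibitors of NF-kB that are also its targets. Rela, the main activating subunit, averaged 1008 in HBC and 1066 in LBC, with a log2 fold change of -0.07. Of 14 inducing cytokines and their receptors 1 was called, against 2.54% of all genes called higher: Il17ra, a receptor chain for interleukin 17, which rose by 0.68 on the log2 scale, with means of 425 in HBC and 259 in LBC. Tnfrsf1a (0.35), Ifnar2 (0.31), Tnfrsf1b (0.31) and the cytokine Il6 (0.24) had an adjusted p under 0.05 without reaching the fold. With Il17ra, 5 of the 14 were higher by adjusted p and 0 lower, against 6.93% and 11.4% of all genes. At an unadjusted p under 0.05 by limma 5 were higher and 2 lower, against 9.51% and 20.4% of all genes. The 2 lower were Il1a (-0.26), which was dim, and Ifngr2 (-0.24, means of 2262 in HBC and 2681 in LBC). The transcripts of the cytokines themselves were dim or nearly so. Ifng averaged 62.5 in HBC and 68.1 in LBC, Ifnb1 65.5 in HBC and 64.9 in LBC, and Tnf 62.2 in HBC and 68.7 in LBC. Il6 averaged 21.8 in HBC and 15.9 in LBC.

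**Figure D4:**
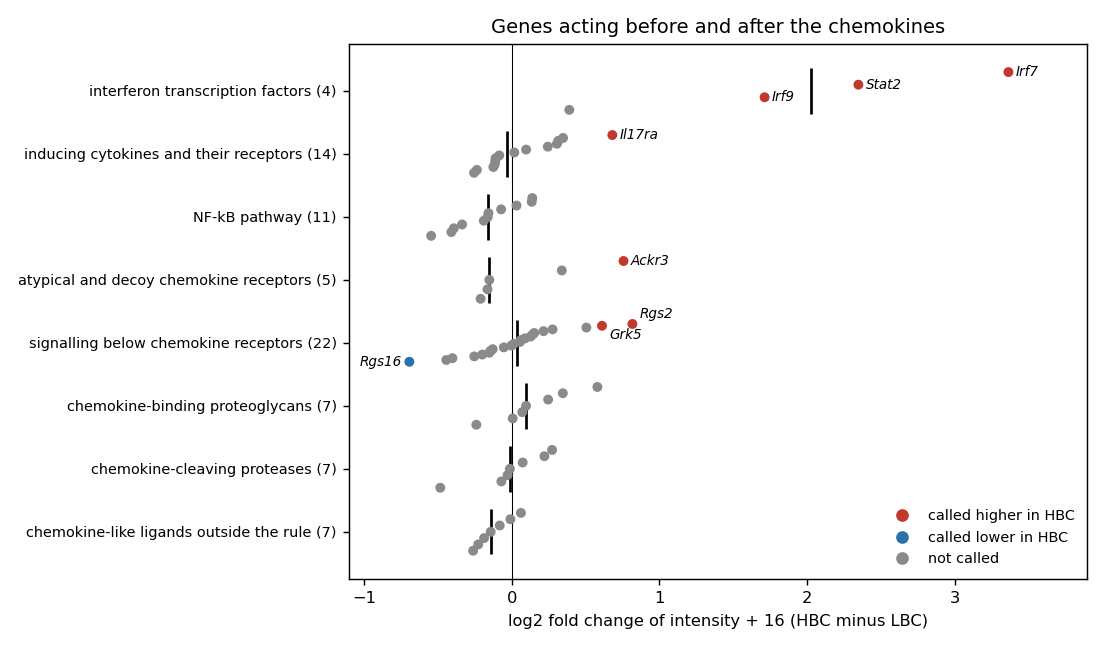
Log2 fold change of intensity + 16 (HBC minus LBC) of each measured gene of 8 lists around the chemokines, with the number of genes in brackets and a black line at the median. Irf7, Stat2 and Irf9 lie at 1.71 or above, and of the other lists only 5 genes are called, Il17ra, Ackr3, Rgs2 and Grk5 higher and Rgs16 lower in HBC.

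Downstream of the receptors, 3 of 22 signalling genes were called, 2 higher (2.54% of all genes) and 1 lower (1.13%). At an unadjusted p under 0.05 by limma 5 were higher and 5 lower, and for this and the next counts at that p the shares of all genes were 9.51% higher and 20.4% lower. Rgs2, a regulator of G protein signalling, rose by 0.82 on the log2 scale (means of 359.6 in HBC and 197 in LBC), and Grk5, a kinase that turns off G protein-coupled receptors, by 0.61 (369.8 in HBC and 237 in LBC). Rgs16, another regulator of the same class, fell by 0.69 on the log2 scale (859 in HBC and 1399 in LBC). Chemokines are held on cell surfaces by proteoglycans, and of 7 measured none was called, with 3 higher and 1 lower at an unadjusted p under 0.05 by limma. Sdc3 came closest to the fold, with a log2 fold change of 0.58 (688 in HBC and 453.6 in LBC, a ratio of means of 1.516 without the offset). None of 7 chemokine-cleaving proteases was called, with 2 higher and 1 lower at an unadjusted p under 0.05 by limma. Mmp9 had a log2 fold change of -0.48 and Mmp14 one of 0.27. Of 7 chemokine-like ligands and their receptors outside the family symbols none was called, with 0 higher and 3 lower at an unadjusted p under 0.05 by limma, and Cklf had a log2 fold change of -0.26.

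Markers of leukocytes, which make many of these chemokines in fat, were not called higher with Cxcl9, Cxcl10, Ccl9 and Ccl7. At an unadjusted p under 0.05 by limma, 9.51% of all genes were higher and 20.4% lower. Of 11 macrophage markers none was called, 0 were higher and 4 lower at an unadjusted p under 0.05 by limma, and their summed intensity ran from 960 to 982 in HBC and from 1072 to 1129 in LBC. Of the 11, 6 lay above the dim range in both groups, the brightest being Cd68 (174 in HBC and 188 in LBC) and Itgam (159 in HBC and 189 in LBC), and Cd14 had a log2 fold change of -0.48 (adjusted p = 8.86e-05, limma). The other 5 were dim in both groups: of these Adgre1, which encodes F4/80, had a log2 fold change of -0.10, Lyz2 averaged 30.9 in HBC and 38.8 in LBC, and Ptprc, the pan-leukocyte antigen CD45, 59.8 in HBC and 69.9 in LBC. Of 6 T and NK cell markers none was called, with 0 higher and 3 lower at an unadjusted p under 0.05, and the sum ran from 499 to 538 in HBC and from 544 to 601 in LBC. None of 6 neutrophil markers was called, with 0 at an unadjusted p under 0.05 in either direction, and the sum ran from 448 to 505 in HBC and from 441 to 525.5 in LBC. None of 6 endothelial markers was called, with 0 higher and 2 lower at an unadjusted p under 0.05, and the sum ran from 445 to 520.6 in HBC and from 444 to 545.5 in LBC. Of 4 mesothelial markers 1 was called lower, against 1.13% of all genes. This was Msln, which fell by 1.20 on the log2 scale (72.6 in HBC and 187 in LBC). It was dim in HBC, so the size of its fall is uncertain. Krt19, the brightest, had a log2 fold change of 0.38 (adjusted p = 0.00222, limma), Upk3b one of -0.05 and Lrrn4 one of -0.14. The sum ran from 731.5 to 748 in HBC and from 725 to 804 in LBC. Of 5 adipocyte markers none was called. At an unadjusted p under 0.05 by limma 1 was higher (Fabp4, 2363 in HBC and 1774 in LBC) and 0 lower.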

How the data were processed

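The files hold linear intensities that the authors obtained with Affymetrix Expression Console. For this step the version, the way probes were summarised and the scaling between arrays were not given in the sources used here. Although version 2.0 of the mouse gene array is named in the methods, all 35556 transcript clusters were found in the annotation of an older array, which gave 1 symbol to 21789 clusters, several to 1621 and none to 12146. The cluster with the highest mean was used per gene, and all 52 genes matched RefSeq (GRCm38.p6). The comparison of HBC with LBC used limma 3.58.1 (R 4.3.3) on log2(intensity + 16), without a replicate block. The number of arrays limits the precision. The fit had 24.9 prior and 4 residual degrees of freedom, so the exponent of a very small adjusted p carries little information. In a simulation of this comparison with 19938 genes, 52% of genes changed 1.5-fold and all those changed 2-fold or more were called. The 52% does not measure precision, since a true fold at the threshold is called only where its estimate exceeds it. The changes were set on the log2(intensity + 16) scale, so the simulation does not show which changes of transcript would be called in dim genes.

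The genes and lists were chosen with earlier results of these data known, and the motifs and role groups after values were seen. Named are all called genes, those with a mean above 100 in either group, the 6 largest changes among the rest, Ccl2 and Ccl11, and in pathway lists the called genes and up to 6 by size of change; other genes are named to account for every member. The alternatives were other scalings, added offsets, intensity filters, variance priors, choices of cluster, the methods' test, thresholds, a replicate block and leaving out each array. Raising dim signal to a floor and leaving out both LBC arrays with a differing source name were chosen after seeing the data.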

Additional observations from a re-analysis of the deposited data

How the results depend on the processing

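The count of 4 ligands higher in HBC was unchanged under every scaling, offset, variance prior, choice of cluster and array left out. It was 3 with a mean intensity above 100 in both groups, which leaves out Cxcl9, and 3 in the methods' test, which loses Cxcl10, and 3 with a fold above 2, which loses Ccl7. No gene of the family was called lower in any of these settings, and with no fold threshold 4 were (Ccl25, Ccl17, Cx3cl1 and Cxcr6). With the replicate number as a block the counts were 4 and 0. Arrays with the same number did not deviate together (correlations of -0.096, -0.237 and -0.504), so the number was not used to pair them.

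Of 632 log2 fold changes of 31 named genes under the alternatives, 21 changed sign, in 7 genes that were called in none of these settings. Under quantile, cyclic loess and median scaling Ccl19 was 0.0466, 0.0772 and 0.0385 and Cxcr1 0.0159, 0.0422 and 0.0036. Under cyclic loess Ccl4 was 0.0206, Cx3cr1 0.0253 and Cxcl3 0.0512, and Cxcl3 was 0.0115 under median centring. With 1 array left out Ccl19 ran from -0.0683 to 0.0288, Ccr10 from -0.0409 to 0.0919, Cx3cr1 from -0.1016 to 0.0018 and Cxcl3 from -0.0766 to 0.0035. Without LBC replicates 2 and 3 Ccr10 was -0.1208, Cx3cr1 0.0299 and Cxcl5 -0.0287. The cause was not tested. Dim signal limits the other statements: 27 of the 52 genes were dim in both groups, where a change in transcript level may not be seen.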
